A study of Mus musculus with 3 samples.

Results

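MicroRNAs of the miR-33, miR-103, miR-107 and miR-802 families were examined in mouse livers after ischemia and reperfusion. The 9 members were all rows of the count files named for these 4 families, both arms of each hairpin included, among 1908 mature microRNAs listed. Of the 9, 8 had at least 1 read in some library and 5 had at least 50 reads over the 3 libraries. Small RNA was sequenced from the liver of male mice of the inbred strain C57BL/6J, aged 8 to 10 weeks, with no genetic change in any group. All mice had been fasted beforehand, with water available, and surgery was done under chloral hydrate anesthesia. The Sham library came from mice kept for 90 min after opening of the abdomen with no clamp. The WI (warm ischemia) library came from mice in which the vessels feeding the left and median lobes of the liver were clamped for 90 min. The IR (ischemia-reperfusion) library came from mice with the same clamp followed by 120 min of restored flow. Each group had 1 library, and how many of its mice contributed RNA is not given in the sources used here. Because no wait in Sham matched the reperfusion time, effects of reperfusion and of time since surgery cannot be told apart in IR.

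A microRNA guides a protein complex to messenger RNAs that pair with its seed, bases 2 to 8, and lowers their output. MiR-33 is made from an intron of Srebf2, the gene of the sterol-sensing transcription factor SREBP-2, and is known to repress the cholesterol exporter Abca1. MiR-103 and miR-107 lie in introns of the pantothenate kinase genes, whose enzymes start coenzyme A synthesis, and are known as regulators of insulin sensitivity in liver and fat. MiR-802 is abundant in liver and rises in obese mice. Each hairpin can give a 5p and a 3p product, and usually 1 arm dominates.

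The mature sequences are shown because they decide which members can be told apart by reads. The 9 members held 6 different seeds, which are in capitals, and all 9 matched an entry of RefSeq (GRCm38.p6), from which the sequences are taken.
mmu-miR-33-5p: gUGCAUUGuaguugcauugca
mmu-miR-33-3p: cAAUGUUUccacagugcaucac
mmu-miR-103-3p: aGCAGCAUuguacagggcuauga
mmu-miR-107-3p: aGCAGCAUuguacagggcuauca
mmu-miR-103-1-5p: gGCUUCUUuacagugcugccuug
mmu-miR-103-2-5p: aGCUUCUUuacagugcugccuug
mmu-miR-107-5p: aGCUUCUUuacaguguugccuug
mmu-miR-802-5p: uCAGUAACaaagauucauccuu
mmu-miR-802-3p: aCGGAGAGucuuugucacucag
MiR-103-3p and miR-107-3p shared their seed and their first 21 bases. Over 23 bases they differed by G22C, counted from 1 at the 5′ end with the base of miR-103-3p first. A read that ends before base 22 therefore fits both names. The 3 minor 5p arms of these hairpins also shared a seed, and miR-103-2-5p differed from miR-107-5p by C16U. Among the 1603 listed microRNAs with a RefSeq sequence, no microRNA outside the families had the seed of a member.

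The hairpins are shown for the loci whose reads differed most between libraries, with both mature arms in capitals.
Mir33: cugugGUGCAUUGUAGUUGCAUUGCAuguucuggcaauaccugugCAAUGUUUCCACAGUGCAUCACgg
Mir802: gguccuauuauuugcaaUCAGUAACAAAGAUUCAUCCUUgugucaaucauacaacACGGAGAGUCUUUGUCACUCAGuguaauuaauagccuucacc
In the mm9 assembly Mir33 lies at chr15:82028552-82028620 on the plus strand, within an intron of Srebf2 and in its direction. Mir802 lies at chr16:93369965-93370061 on the plus strand, outside other annotated genes. Mir103-1 lies in an intron of Pank3 at chr11:35595898-35595983 and Mir103-2 in an intron of Pank2 at chr2:131113788-131113873, both on the plus strand. Mir107 lies in an intron of Pank1 at chr19:34895177-34895263 on the minus strand. Mature miR-103-3p is identical from both of its loci, so its reads could not be assigned to Pank3 or Pank2. All 5 RefSeq hairpins were identical to the mm9 sequence at these positions.

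The libraries held between 3784539 and 5064014 microRNA reads. Levels are given as reads per 1000000 (CPM) after scaling by trimmed mean of M-values (TMM), with exact 95% Poisson intervals that cover counting error only. The detection floor of 3 reads corresponded to 0.758 CPM in Sham, 0.617 under WI and 0.785 under IR. The members together made up 0.363% of the Sham library, 0.350% of WI and 0.304% of IR. The 4 listed hepatocyte microRNAs (miR-122-5p, miR-122-3p, miR-192-5p and miR-194-5p) had reads in every library and summed to between 259963 and 285072 CPM.

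To see which members the livers made, levels were first ordered within each library. The order was the same in all 3 libraries for the 5 members with at least 50 reads: miR-103-3p, miR-107-3p, miR-802-5p, miR-802-3p and miR-33-5p. No neighbours among these 5 had overlapping intervals in any library. MiR-103-3p ranked 42 of 653 microRNAs with a read in Sham, 45 of 682 in WI and 46 of 679 in IR. MiR-33-5p ranked 292, 238 and 303 in the same libraries. MiR-103-1-5p had 0 reads in each library and miR-103-2-5p had 1 read, in WI. The microRNA mmu-miR-107-5p had 7 reads in Sham, 5 under WI and 3 under IR, so no change could be detected at this depth (Fisher's exact p = 0.345 for IR versus Sham, the lowest of its 3). Both miR-103 5p arms were below the 3-read level everywhere.

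**Figure D1:**
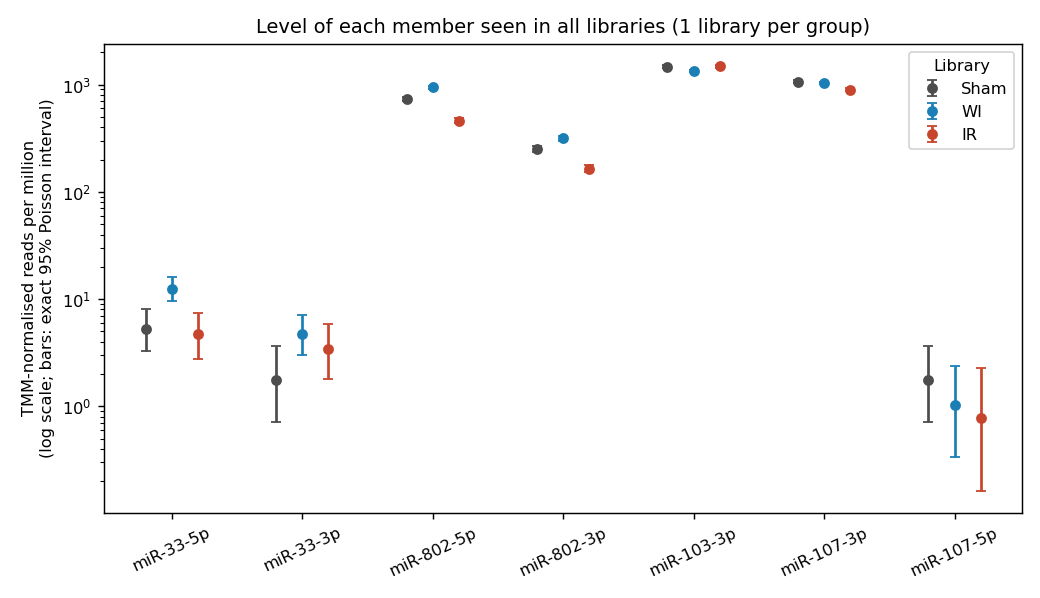
Points show the level of each member seen in all libraries, in CPM on a log scale, for the Sham, WI and IR libraries, and bars are exact 95% Poisson intervals. Both arms of miR-802 were highest in WI and lowest in IR, miR-33-5p stood out in WI, and miR-103-3p lay between 1329 and 1474 CPM.

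Pairs of libraries were then compared for each microRNA with Fisher's exact test (two-sided) on its reads, and calls required p under 0.01 and a change of more than 1.5-fold. Fold changes are log2 ratios of CPM + 0.1, with a standard error (SE) from read counts alone. With 1 library per group no difference had a replicate check, and each p compares 2 libraries rather than 2 conditions. Adjusted p-values are Benjamini-Hochberg values over all microRNAs tested in a comparison.

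The members were read against all microRNAs tested. In WI versus Sham, 1 of 8 members tested was called higher and 0 lower, where 1.41% of 782 microRNAs were called higher and 0.512% lower. In IR versus WI, 0 of 8 members were called higher and 3 lower, where 6.21% of 789 microRNAs were called higher and 3.04% lower. In IR versus Sham, 0 of 7 were called higher and 2 lower, where 5.68% of 774 microRNAs were called higher and 1.42% lower. The balance of higher and lower calls over all microRNAs depended on the scaling. In WI versus Sham TMM called 11 higher and 4 lower, and size factors of DESeq2 called 10 higher and 6 lower. Plain library totals turned the balance to 7 higher and 10 lower, as did removal of the 10 most abundant microRNAs (8 higher, 9 lower), whereas totals of genome-aligned reads gave 23 higher and 2 lower. The latter gave 38 higher and 73 lower in IR versus WI, where TMM gave 49 and 24, and 35 and 27 in IR versus Sham, where TMM gave 44 and 11. The 3 calls in IR versus WI came from 2 hairpins, and the 2 in IR versus Sham from 1. Over the 7 members seen in all libraries the median log2 fold change was 0.34 in WI versus Sham, -0.46 in IR versus WI and -0.24 in IR versus Sham. Over all microRNAs seen in both libraries compared it was 0.02, -0.01 and 0.04. The 7 members include both arms of miR-33, miR-802 and miR-107, so their values are not independent. The median of -0.46 was the value of miR-33-3p, from 23 reads under WI and 13 under IR. MiR-103-3p, the most abundant member, was at 0.15 in that comparison. The comparisons share libraries, so a high value in WI alone enters both comparisons with WI.

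After reperfusion, both arms of miR-802 were lower than in either other library. The microRNA mmu-miR-802-5p, the dominant arm, had 2905 reads in Sham, 4596 under WI and 1766 under IR. These were 734 CPM in Sham (interval 707 to 761), 945 under WI (918 to 972) and 462 under IR (441 to 484). WI was thus the highest and IR the lowest, and no intervals overlapped. MiR-802-3p, the minor arm of the same hairpin, had 988, 1538 and 629 reads. Its levels were 249 CPM in Sham (234 to 266), 316 under WI (301 to 332) and 164 under IR (152 to 178), again without overlap. Both arms come from 1 transcript, so they are not independent observations of a change. In bulk liver, fewer cells that express miR-802 and less miR-802 per cell cannot be told apart.

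From WI to IR, miR-802-5p decreased by 1.03 log2 units (SE 0.040, interval -1.11 to -0.95, Fisher's exact p = 1.93e-157, adjusted p = 7.62e-156). MiR-802-3p fell by 0.94 (SE 0.068, interval -1.08 to -0.81, Fisher's exact p = 1.38e-46, adjusted p = 3.03e-45). From Sham to IR, miR-802-5p fell by 0.67 (SE 0.044, Fisher's exact p = 1.48e-54, adjusted p = 4.10e-53), a fold change of 1.59. MiR-802-3p fell by 0.60 (SE 0.074, Fisher's exact p = 1.45e-16, adjusted p = 2.39e-15), a fold change of 1.52 that was just past the threshold. From Sham to WI, the log2 fold change was 0.36 for miR-802-5p (SE 0.034, Fisher's exact p = 5.60e-27, adjusted p = 1.62e-25) and 0.34 for miR-802-3p (SE 0.059). Both were larger than counting error under TMM, but the fold changes of 1.29 and 1.27 were below the threshold and neither was called. Scaled to miR-122-5p, the value of miR-802-3p in WI versus Sham was 0.090, within counting error (Fisher's exact p = 0.129). Over all alternative settings the log2 fold change of miR-802-5p lay between 0.11 and 0.52 in WI versus Sham, between -1.36 and -0.73 in IR versus WI, and between -0.84 and -0.61 in IR versus Sham. For miR-802-3p the ranges were 0.090 to 0.50, -1.27 to -0.64 and -0.77 to -0.55. With a required fold change above 2, only miR-802-5p in IR versus WI was still called among these. The 4 calls of miR-802 were lost once a coefficient of variation of 0.2 between libraries of a group was assumed (edgeR's exact test, p between 0.0131 and 0.152).

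MiR-802 was also set against other abundant microRNAs. Of 122 microRNAs with at least 1000 reads over WI and IR, a minimum chosen after the values were seen, 4 (3.28%) were called lower in IR. The arms of miR-802 held the places 1 and 2 from the lowest log2 fold change among these 122. Among 116 such microRNAs in IR versus Sham, 4 (3.45%) were called lower and the arms held the places 2 and 4. By the lower minimum of 50 reads, miR-802-5p was at place 9 and miR-802-3p at place 11 of 298 in IR versus WI.

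A ratio within a library does not depend on scaling, so miR-802 was expressed relative to miR-122-5p, a microRNA characteristic of hepatocytes. For every 1000 reads of miR-122-5p there were 46.0 reads of miR-802-5p in Sham (interval 44.3 to 47.7), 49.7 under WI (48.3 to 51.2) and 30.1 under IR (28.7 to 31.5). MiR-122-5p itself was at 15960 CPM in Sham, 18999 under WI and 15364 under IR. On this scale, chosen after the values were seen, the log2 fold change of miR-802-5p was -0.73 in IR versus WI and -0.61 in IR versus Sham, and both were called. MiR-802-3p was no longer called in IR versus Sham on this scale (-0.55).

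The proportion of the miR-802 arms was compared next. MiR-802-5p took 74.6% of the reads of both arms in Sham (exact Clopper-Pearson interval 73.2 to 76.0), 74.9% under WI (73.8 to 76.0) and 73.7% under IR (71.9 to 75.5). The intervals overlapped, and the odds ratio of IR versus WI was 0.94 (interval 0.843 to 1.05, Fisher's exact p = 0.257, adjusted p = 0.541 over 12 tests of shares).

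**Figure D2:**
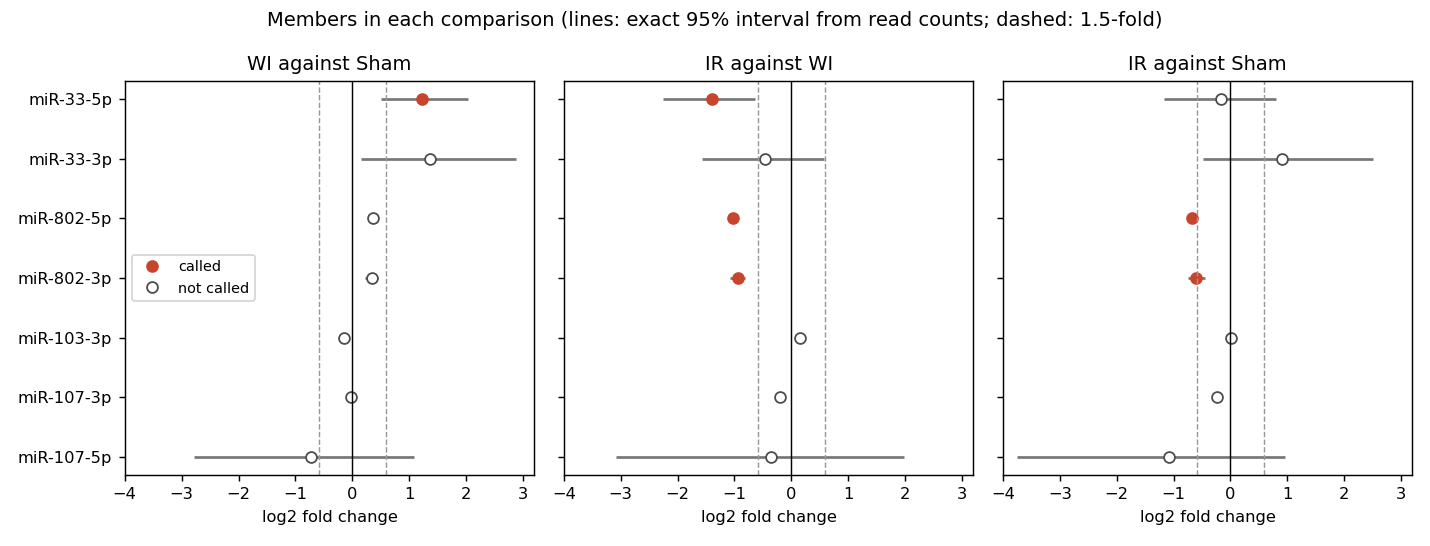
Points show the log2 fold change of 7 members in WI versus Sham, IR versus WI and IR versus Sham, lines are exact 95% intervals from read counts, and dashed lines mark a 1.5-fold change. Filled points passed both thresholds: miR-33-5p in the first comparison, miR-33-5p and both miR-802 arms in the second, and both miR-802 arms in the last.

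The microRNA mmu-miR-33-5p, the arm known for repression of Abca1, was higher in WI than in the Sham library and lower again in IR. It had 21 reads in Sham, 61 under WI and 18 under IR. Its levels were 5.30 CPM in Sham (interval 3.28 to 8.11), 12.5 under WI (9.59 to 16.1) and 4.71 under IR (2.79 to 7.44). The WI interval lay above both others, which overlapped. MiR-33-5p rose by 1.23 from Sham to WI (SE 0.37, interval 0.51 to 2.03, Fisher's exact p = 0.00050, adjusted p = 0.00506). It fell by 1.39 from WI to IR (SE 0.39, interval -2.26 to -0.64, Fisher's exact p = 0.00010, adjusted p = 0.00075). This was the lowest log2 fold change among the 298 microRNAs with at least 50 reads over WI and IR. MiR-33-5p reached that minimum through its 61 reads in WI, and the place depends on the minimum. Below it, miR-1247-3p (40 reads under WI and 5 under IR) had a lower log2 fold change of -2.56. For miR-33-5p, IR versus Sham gave -0.17 with a wide interval of -1.17 to 0.81 (Fisher's exact p = 0.751). The values of miR-33-5p rest on 100 reads in all. Under an assumed coefficient of variation of 0.2 between libraries of a group, edgeR's exact test gave p = 0.0321 for the rise and p = 0.0165 for the fall. Neither was called.

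The other arm, mmu-miR-33-3p, had 7 reads in Sham, 23 under WI and 13 under IR. Its levels were 1.77, 4.73 and 3.40 CPM, with WI again the highest. WI versus Sham gave a log2 fold change of 1.37 (SE 0.62, Fisher's exact p = 0.0174, adjusted p = 0.131), which missed the threshold. It was called with totals of genome-aligned reads as the scale (Fisher's exact p = 0.00948). IR versus WI gave -0.46 (interval -1.58 to 0.57, Fisher's exact p = 0.403). MiR-33-5p took 75.0% of the reads of both arms in Sham (interval 55.1 to 89.3), 72.6% under WI (61.8 to 81.8) and 58.1% under IR (39.1 to 75.5). At this depth no pair of these shares could be told apart, the lowest Fisher's exact p being 0.174 for IR versus WI, whose odds ratio of 0.53 had an interval of 0.204 to 1.36.

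MiR-103-3p and miR-107-3p, which share a seed, were the most abundant members and stayed below the fold threshold in every comparison. The microRNA mmu-miR-103-3p had 5827 reads in Sham, 6468 under WI and 5635 under IR. These were 1471, 1329 and 1474 CPM, with WI the lowest. The microRNA mmu-miR-107-3p had 4196, 5048 and 3437 reads. These were 1060, 1038 and 899 CPM, with IR the lowest.

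WI versus Sham gave a log2 fold change of -0.15 for miR-103-3p (SE 0.026, Fisher's exact p = 2.05e-08) and -0.03 for miR-107-3p (SE 0.030, Fisher's exact p = 0.315). IR versus WI gave 0.15 for miR-103-3p (SE 0.026, Fisher's exact p = 1.74e-08) and -0.21 for miR-107-3p (SE 0.032, Fisher's exact p = 6.91e-11). IR versus Sham gave 0.00 for miR-103-3p (interval -0.05 to 0.06, Fisher's exact p = 0.940) and -0.24 for miR-107-3p (SE 0.033, Fisher's exact p = 7.94e-13). The largest of these was a fold change of 1.18. Their signs depended on the scaling, except that of miR-107-3p in IR versus Sham, which was negative under all 6 scalings (-0.41 to -0.18).

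The balance of both microRNAs does not depend on scaling. MiR-103-3p made up 58.1% of their summed reads in Sham (exact Clopper-Pearson interval 57.2 to 59.1), 56.2% under WI (55.3 to 57.1) and 62.1% under IR (61.1 to 63.1). The IR interval lay above both others, and the WI interval lay below that of Sham. The share was 5.95 percentage points higher in IR than in WI (Fisher's exact p = 6.96e-18, adjusted p = 8.36e-17 over 12 tests of shares) and 3.98 points higher in IR than in Sham (Fisher's exact p = 2.24e-08, adjusted p = 1.35e-07). It was 1.97 points lower in WI than in Sham (Fisher's exact p = 0.00360, adjusted p = 0.0144). The test covers counting error only, and the G22C difference near the 3′ end means that read length bears on how reads were divided between the names, which was not tested. MiR-107-3p held at least 99.8% of the reads of its hairpin in each library.

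**Figure D3:**
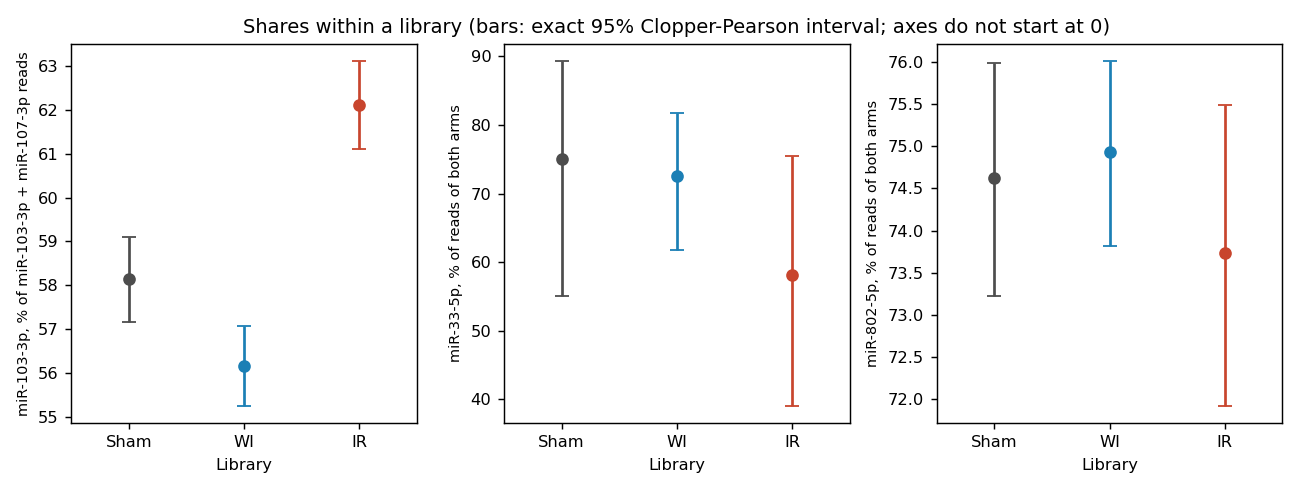
Points show, for the Sham, WI and IR libraries, the percentage of reads taken by miR-103-3p among miR-103-3p plus miR-107-3p, by miR-33-5p among both miR-33 arms and by miR-802-5p among both miR-802 arms. Bars are exact 95% Clopper-Pearson intervals. The first share was highest in IR (62.1%) with no overlap, while the intervals of the arm shares overlapped in all libraries.

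**Figure D4:**
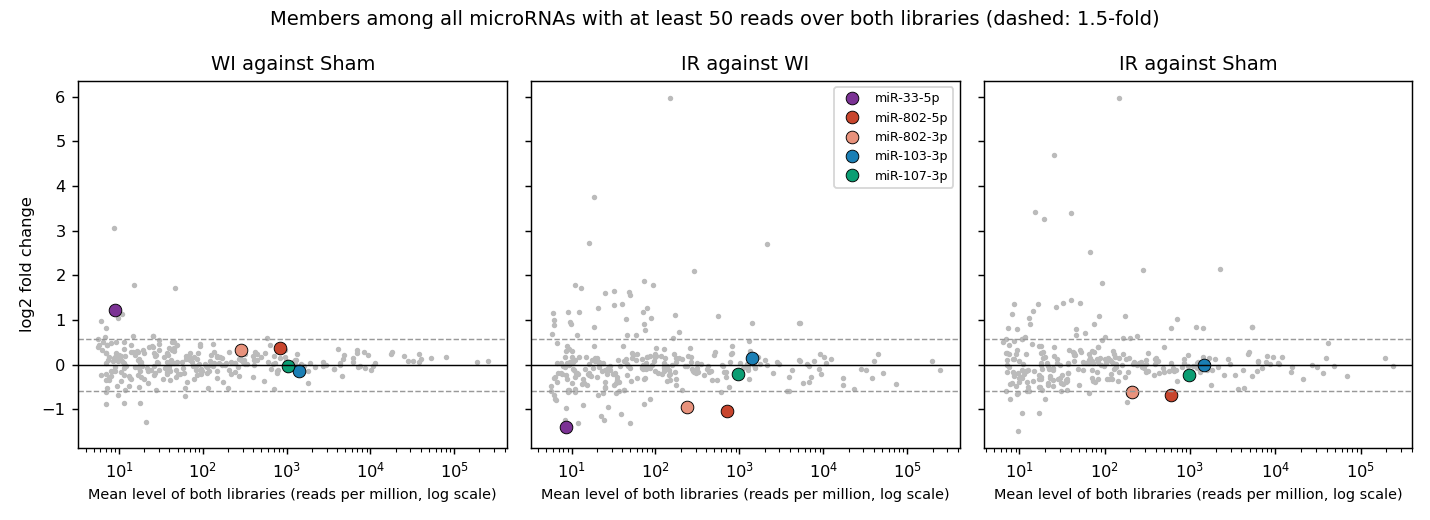
Each grey point is a microRNA with at least 50 reads over both libraries, placed by its mean level in CPM (log scale) and its log2 fold change, and coloured points are members. In IR versus WI, miR-33-5p was the lowest of the 298 microRNAs drawn, a set that it entered through its 61 reads in WI. MicroRNAs with fewer reads, some of them lower, are not drawn. The miR-802 arms lay under the dashed line of a 1.5-fold change at far higher mean levels than miR-33-5p.

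Profiles over the 3 libraries were compared by the Euclidean distance of centred log2 levels, over 312 other microRNAs with at least 50 reads. The nearest to miR-33-5p was miR-27a-5p, with 24 reads in Sham, 67 under WI and 20 under IR (distance 0.04 log2 units). The next were miR-1247-5p (0.41) and miR-455-3p (0.44). For miR-802-5p the nearest microRNA of all was its own partner arm (0.07), followed by miR-30c-1-3p (0.10), miR-30d-3p (0.11) and miR-223-5p (0.12). MiR-802-3p had miR-30d-3p (0.06) as its nearest, then its partner arm (0.07), miR-223-5p (0.13) and miR-30c-1-3p (0.13). The nearest to miR-103-3p were miR-199a-5p (0.02), miR-16-5p (0.03) and miR-322-3p (0.03), and the nearest to miR-107-3p were miR-142-5p (0.01), miR-330-5p (0.02) and miR-1839-5p (0.02). MiR-107-3p and miR-103-3p were 0.26 apart, and 123 of the 312 microRNAs lay closer to miR-103-3p than its seed partner did. These distances rest on 3 libraries and describe likeness only. They leave out counting error. For miR-33-5p the SE of its fold changes was 0.37 in WI versus Sham and 0.39 in IR versus WI, far above 0.04.

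Other microRNAs known from lipid or glucose control were taken from a list of 26, of which 25 had a read in each comparison. In WI versus Sham, 0 of 25 were called, where Fisher's exact test called 1.92% of all microRNAs. In IR versus WI, 1 was called higher and 3 lower, where 9.25% of all were called. MiR-223-3p, a myeloid microRNA that also represses cholesterol synthesis genes, rose from 109 to 236 CPM. MiR-375-3p, known from insulin secretion, fell from 17.7 to 9.41 CPM, miR-29b-3p from 108 to 63.5 and miR-34a-5p, a repressor of Sirt1, from 44.0 to 29.3. The log2 fold change of miR-34a-5p was -0.5851, where the threshold is 0.5850, and its call was lost when the 10 most abundant microRNAs were removed and under size factors of DESeq2 or plain totals. None of these 3 microRNAs was called lower on the scale of miR-122-5p. In IR versus Sham, 2 were called higher and 0 lower, where 7.11% of all were called. These were miR-223-3p (110 to 236 CPM) and miR-144-3p, which represses Abca1 (79.8 to 123 CPM), and miR-144-3p lost its call without the 10 most abundant microRNAs and with genome-aligned totals. The median log2 fold change of the list was 0.12, -0.07 and -0.05 in the 3 comparisons, beside 0.05, -0.01 and 0.04 over all microRNAs tested.

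Markers of other cells also moved in IR, where miR-802 was lowest. All 3 erythroid markers (miR-451a, miR-144-3p and miR-144-5p) were called higher in IR than in Sham and 2 of 3 in IR than in WI, and their summed level was 1246 CPM in Sham, 1196 under WI and 2157 under IR. MiR-451a was called in IR under all 6 scalings. The calls of miR-144-3p and miR-144-5p in IR versus Sham (0.63 and 0.61 log2 units) were both lost with genome-aligned totals (0.46 and 0.44). Both were also lost without the 10 most abundant microRNAs (0.56 and 0.54). That of miR-144-5p was lost under size factors of DESeq2 and plain library totals as well (0.58 in each). Its call in IR versus WI was lost with genome-aligned totals (0.27). Among the 5 leukocyte markers, miR-223-3p alone was called higher in IR, in both comparisons. The other arm of its hairpin, miR-223-5p, is not among the 5 and had 39 reads in Sham, 55 under WI and 22 under IR. It passed both thresholds in the opposite direction in IR versus WI (-0.96 log2 units, Fisher's exact p = 0.00786). MiR-150-5p (119 CPM in Sham, 104 under WI and 95.4 under IR) and miR-155-5p (20.2, 16.6 and 14.4 CPM) had their lowest level in IR and were not called. The other two are listed in the files under the older names miR-142-5p (2735, 2672 and 2342 CPM) and miR-142-3p (110, 152 and 119 CPM), which were not called. All 5 summed to 3094 CPM in Sham, 3054 under WI and 2806 under IR, and without miR-142 the sum was 249, 230 and 346 CPM. The 3 muscle markers summed to 6.82 CPM in Sham, 23.8 under WI and 75.1 under IR, nearly all from miR-133a-3p. Under TMM miR-133a-3p was called higher in all 3 comparisons, so also in WI versus Sham. Its log2 fold change was 1.78 in WI versus Sham, 1.63 in IR versus WI and 3.41 in IR versus Sham. MiR-206-3p had 0 reads in Sham and WI, and miR-1a-3p had 0 in Sham. The 2 endothelial markers summed to 19267, 22783 and 17568 CPM and the 4 hepatocyte markers to 267361, 285072 and 259963 CPM. None of these 6 was called under TMM in any comparison. With genome-aligned totals, miR-122-5p was called lower in IR versus WI (-0.63 log2 units). Calls of the others under other scalings are not reported here. The part of other cells in the levels of the members was not tested.

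**Figure D5:**
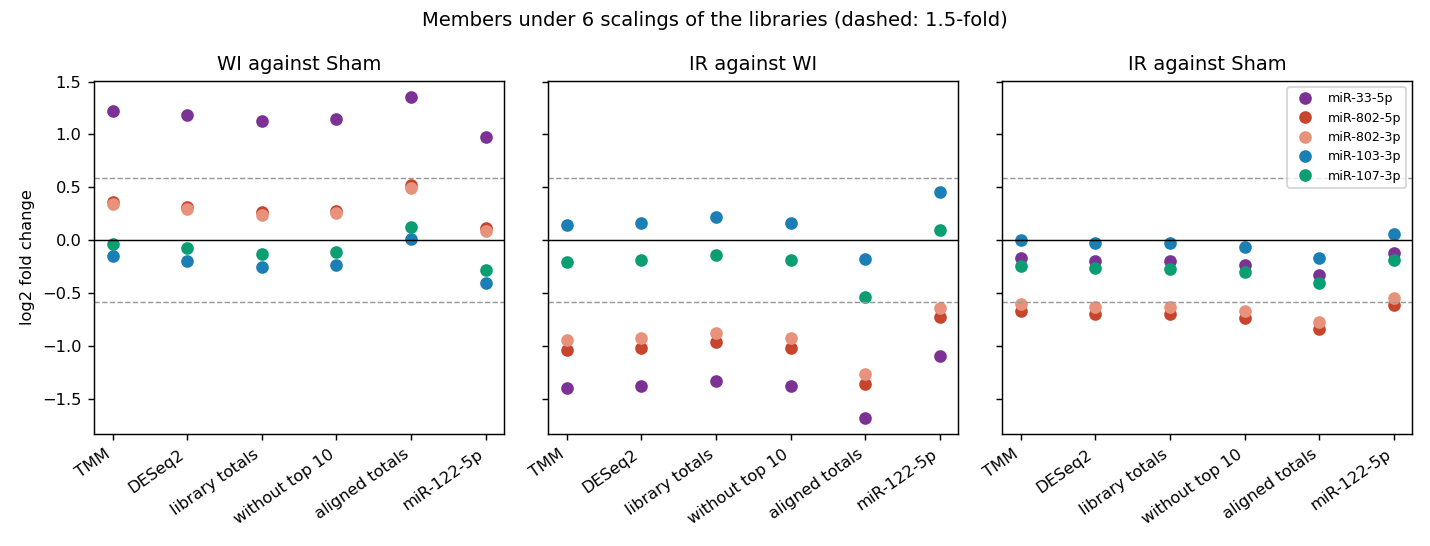
Points show the log2 fold change of 5 members under 6 scalings of the libraries (TMM, size factors of DESeq2, plain library totals, totals after removal of the 10 most abundant microRNAs, genome-aligned totals and miR-122-5p), and dashed lines mark a 1.5-fold change. In IR versus WI miR-33-5p and both miR-802 arms stayed below the lower line under each scaling, while miR-103-3p and miR-107-3p changed sign.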

How the data were processed

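The authors trimmed adaptors, dropped low-quality reads, aligned those of suitable length to the mouse genome with Bowtie 0.12.7 (version from the submitters' processing notes) and counted mature microRNAs with miRDeep2. The build is mm9 in the methods of the study and mm10 in the labels. The deposited values were raw counts of reads per mature microRNA, without molecular identifiers, so PCR copies were counted as reads. Groups came from the sample titles.

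Counts were scaled by TMM in edgeR 4.0.16 (R 4.3.3), with factors of 1.03 for Sham, 0.961 for WI and 1.01 for IR. Fisher's exact test (scipy 1.17.1) compared the reads of each microRNA with the scaled totals, over every microRNA with a read in either library. The thresholds are those in the methods of the study. With 1 library per group the quasi-likelihood test of edgeR could not be fitted. The procedure was run on simulated counts that carried counting error only, so variation between libraries was not covered. Hairpin positions came from the GENCODE annotation of mm9.

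The members, lists and tests were chosen with earlier results of these data known. Named beside the members were the 3 microRNAs nearest in profile to each member with at least 50 reads, called microRNAs of the lipid and glucose list, and the cell type markers.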

Additional observations from a re-analysis of the deposited data

How the results depend on the processing

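No paired analysis was possible because each group has 1 library, and for the same reason no library could be left out. The depth limits the 5p arms of miR-103 and miR-107 and both arms of miR-33, which had few reads. Under the 9 settings that changed the values, 189 fold changes of members were recomputed: direction and call stayed in 178, 1 call was lost, 1 was gained and the sign changed in 9, none of which was a called change. Under the 6 settings that changed only the test or a threshold, 110 of 126 outcomes (called or not) stayed, 15 calls were lost and 1 was gained. All shares of arms and of miR-103-3p stayed within their intervals after thinning to equal depth. This had to hold for IR, which as the smallest library was not thinned, and random thinning leaves an expected share unchanged. The pseudocount, the minimum of 10 reads and adjusted p-values left the calls of members as reported.

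One setting of edgeR's exact test took 0.2 as the coefficient of variation between libraries of a group. It called 4 microRNAs in WI versus Sham, 33 in IR versus WI and 24 in IR versus Sham. Fisher's exact test called 15, 73 and 55. With 0.4 it called 1, 6 and 10. In both cases 0 members were called in each comparison, while a value of 0.1 left the calls of members as reported. At p under 0.05 WI versus Sham gave 33 microRNAs and 2 members, miR-33-3p being added. At a fold change above 2, WI versus Sham gave 9 microRNAs and 1 member, IR versus WI gave 49 and 2 members, miR-802-3p losing its call, and IR versus Sham gave 35 and 0 members.

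With totals of genome-aligned reads, the median log2 fold change of all microRNAs was 0.20 in WI versus Sham, -0.32 in IR versus WI and -0.09 in IR versus Sham. They gave 25 microRNAs in WI versus Sham and 111 in IR versus WI. In WI versus Sham, where TMM gave 11 higher and 4 lower, they gave 23 and 2, while library totals gave 7 and 10. Members called in WI versus Sham were then 2, with miR-33-3p added, and calls of the lipid and glucose list were 2 in WI versus Sham, 10 in IR versus WI and 1 in IR versus Sham. Without the 10 most abundant microRNAs the list had 1 call in IR versus Sham. Its calls in IR versus WI were 4 with TMM and 3 with size factors of DESeq2, library totals or without the 10 most abundant. MiR-103-3p in IR versus Sham became -0.024 (DESeq2 1.42.0), -0.026 (library totals), -0.062 (without the 10 most abundant), -0.17 (aligned reads) and -0.00027 (thinned). With aligned reads miR-103-3p became 0.0097 in WI versus Sham and -0.18 in IR versus WI, and miR-107-3p became 0.13 in WI versus Sham. Scaled to miR-122-5p, which moved the median of all microRNAs to -0.20, 0.29 and 0.08, miR-107-3p became 0.099 in IR versus WI and 1 member was called in IR versus Sham.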
